A study of Mus musculus with 3 samples.

Results

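Ephrins, Slits and netrins are cues that steer growing axons, and with their receptors they were measured here in wild-type mouse cortical neurons. The set holds 37 genes, chosen by family membership and by no measured value, though with earlier results of these data known. These are 14 Eph receptors, 8 ephrins, 3 Slits, 3 Robo receptors, 3 netrins, the receptor genes Dcc and Neo1, and 4 UNC5 receptors. They were found among 18130 protein-coding genes with a value. Total RNA was sequenced in 3 libraries, which form 1 group with genotype WT and treatment CON, and the series title concerns DNA supercoiling and topoisomerases in the neuronal genome. The labels name no age, culture time or agent, and nothing says that the libraries came from separate cultures, so their spread may in part be technical. With 1 group the comparisons are between genes inside each library.

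Levels are in TPM, the field's relative transcript abundance, scaled by transcript length and by the library's total. Each gene is represented by the coding transcript with the highest product of mean TPM and length in GENCODE M21. The read number in the deposited annotation's own length would choose another transcript for 2 members, Epha5 (40.1 ± 2.12 in place of 38.6 ± 1.33 TPM) and Slit2 (3.45 ± 0.61 in place of 3.49 ± 0.55 TPM). The listed transcripts of a gene share reads, and TPM add up over all 84660 of them, so these levels are lower than gene-level TPM would be. The chosen transcripts of nuclear coding genes summed to 216680, 218745 and 211138 TPM in replicates 1, 2 and 3. Errors are SD over the 3 libraries. Read totals over the coding transcripts so chosen were 32474364, 28671417 and 28214736. For each member at least 97.2% of the 50-base stretches of its transcript had no second place in the genome, and the largest exonic overlap with another gene on the same strand was 1.77%, in Ntn3. The 8 neuronal markers examined were each expressed, led by Stmn2, Gap43 and Snap25. All 7 astrocyte markers examined were expressed as well, led by Slc1a3 at 184 ± 19.1 and Aldoc at 128 ± 21.4 TPM. How much of each member's level came from glia was not tested.

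Eph receptors are the largest family of receptor tyrosine kinases. EphA receptors bind mainly ephrin-A ligands, which are tied to the membrane by a lipid anchor, and EphB receptors bind mainly ephrin-B ligands, which cross the membrane and can signal back into their own cell. Slits are secreted proteins that repel axons through Robo receptors. Netrins are secreted or matrix proteins that attract axons through DCC and repel them through UNC5 receptors. In cortex these systems act in axon pathfinding and topographic maps, and several members also act at synapses.

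Taken at a minimum of 1 TPM, called expressed below, 30 of the 37 genes were expressed, beside 61.8% of all coding genes. The median member stood at 3.82 ± 0.24 TPM (SD, n = 3) and the median coding gene at 2.90 ± 0.01 TPM. At least 10 TPM was reached by 9 of the 37 members, beside 26.9% of coding genes. Neo1, Epha5, Efnb3 and Epha4 held the highest levels, between 31.3 and 39.4 TPM, and each lay above at least 91.2% of coding genes. The genes under 1 TPM were Ntn3, Ephb4, Unc5b, Efna4, Efna1, Epha2 and Epha1. Just above the threshold lay Robo3 at 1.05 and Ntn1 at 1.08 TPM, and just below it Ntn3 at 0.627 TPM.

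**Figure D1:**
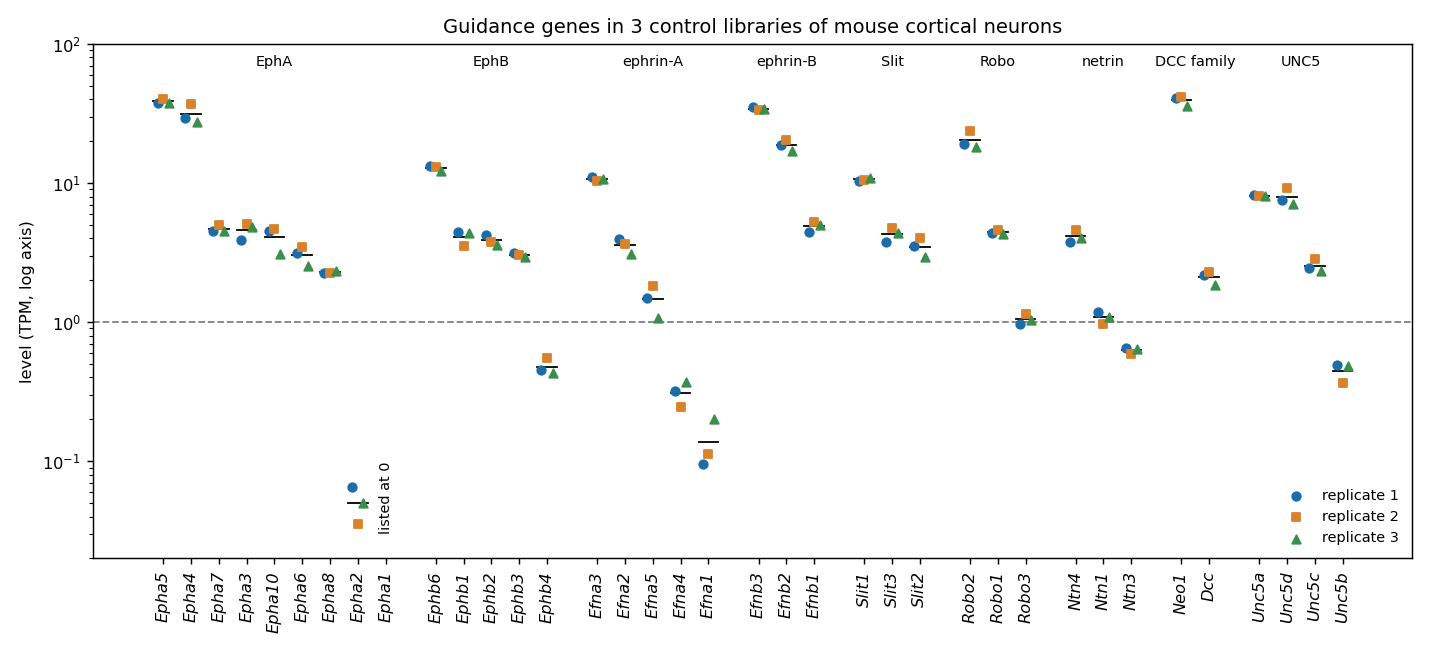
Level of each of the 37 genes (TPM, log axis) in replicates 1, 2 and 3, grouped by family, with a black bar at the mean and a dashed line at 1 TPM. The levels run from Neo1 at 39.4 TPM down to Epha1, which is listed at 0.

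Among EphA receptors, 7 of 9 were expressed, and Epha5 and Epha4 stood far above the others. Epha5, a receptor known from topographic mapping, had 37.9, 40.1 and 37.8 TPM in replicates 1, 2 and 3. Epha4, which binds ephrins of both classes and guides corticospinal axons, had 29.4, 36.98 and 27.6 TPM. Epha5 was higher than Epha4 in each library, and their ranges did not overlap. Epha7 at 4.70 ± 0.28 TPM, Epha3 at 4.603 ± 0.62 TPM and the kinase-inactive receptor gene Epha10 at 4.08 ± 0.86 TPM followed. With the transcripts used, the libraries of Epha7 and Epha3 overlapped, as did those of Epha3 and Epha10. These neighbours were then not separated beyond their spread. The Epha7 transcript with 1878 coding bases had 8.32, 8.78 and 8.34 TPM, above each library of Epha3.

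Epha6 stood at 3.04 ± 0.46 TPM, which overlapped Epha10, and Epha8 at 2.28 ± 0.06 TPM. Epha2, a receptor best known from epithelia, had 0.065, 0.035 and 0.050 TPM, from 13, 6 and 9 reads. Epha1, another receptor of epithelia, had no read in any library, and a count of 0 allows up to 3 reads, or 0.018, 0.021 and 0.020 TPM. Such limits cover counting error only. Epha4 exceeded Epha7, at 4.54, 5.02 and 4.54 TPM, by 2.70 ± 0.14 on the log2(TPM + 0.1) scale, a ratio of 6.64 ± 0.66. The difference was 2.03 with the most abundant transcript and 1.82 with the sum over transcripts.

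Of 5 EphB receptors, 4 were expressed, and the highest was Ephb6, whose kinase domain is known to be inactive. Ephb6 had 13.3, 13.0 and 12.2 TPM. Ephb1, a receptor of axons that turn at the optic chiasm, had 4.42, 3.51 and 4.40 TPM and was lowest in replicate 2. Ephb2, which also acts at excitatory synapses, had 4.23, 3.80 and 3.56 TPM, and with this transcript its libraries overlapped those of Ephb1. The Ephb2 transcript of 4804 bases had 7.73, 6.63 and 6.52 TPM, above each library of Ephb1. Ephb3, which with Ephb2 acts in the corpus callosum, stood at 3.06 ± 0.10 TPM. Ephb4, the receptor of venous endothelium, was lowest at 0.454, 0.549 and 0.434 TPM, from 101, 103 and 86 reads. Of 6 endothelial markers none reached 1 TPM, their sums were 0.599, 0.880 and 0.570 TPM, and Cldn5 was at 0 in each library. Any link of these markers to the level of Ephb4 was not tested.

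Ephb2 lay -1.71 ± 0.07 log2 units from Ephb6, which was 3.33 ± 0.17 times as high. The size of that difference rests on the transcript taken for Ephb2: it was -0.29 with the most abundant coding transcript and -0.50 with the sum over transcripts. The EphA and EphB medians differed by 0.03 ± 0.32 log2 units, less than the spread between libraries, and by -1.08 with the sum over transcripts.

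The ephrin classes differed in their medians, but their genes overlapped. Efna3, an ephrin-A gene at 10.7 TPM, lay above Efnb1 at 4.90 TPM in each library. All 3 ephrin-B genes were expressed, against 3 of 5 ephrin-A genes, and the ephrin-B median was 18.7 ± 1.76 TPM where the ephrin-A median was 1.46 ± 0.38 TPM; this class contrast was computed after the levels were seen and carries no test. Efnb3, the ligand that keeps corticospinal axons from recrossing the midline, had 35.02, 33.8 and 34.0 TPM. Efnb2, a ligand also known from arteries, had 18.6, 20.5 and 17.0 TPM, and Efnb1, on the X chromosome, 4.47, 5.20 and 5.02 TPM. The order Efnb3, Efnb2, Efnb1 held in each library without overlap. Efnb2 lay -0.87 ± 0.14 log2 units from Efnb3, and the sum over transcripts, which counts shared reads repeatedly, turned the sign to 0.24.

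Efna3 was the highest ephrin-A gene with 11.1, 10.3 and 10.8 TPM. Efna2 stood at 3.57 ± 0.45 TPM. Efna5, which forms gradients in cortical and retinal maps, had 1.49, 1.82 and 1.07 TPM from 307, 318 and 197 reads. Its spread of 25.9% of the mean was the largest among the expressed members, where counting error alone gives 6.04%. Efna4 at 0.311 ± 0.062 TPM and Efna1 at 0.137 ± 0.057 TPM were low in each library, Efna1 from 8, 8 and 15 reads. Efna5 lay -2.83 ± 0.39 log2 units from Efna3. The Eph receptor median lay -0.18 ± 0.11 log2 units from the ephrin median. The sum over transcripts turned this to 0.64, and a minimum of 1 TPM moved it to -0.68.

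All 3 Slit genes were expressed, and Slit1, the Slit known mostly from the nervous system, was highest. Slit1 had 10.4, 10.6 and 10.9 TPM, one of the smallest spreads of the set. Slit3 had 3.78, 4.79 and 4.35 TPM and Slit2 3.52, 4.01 and 2.92 TPM, with ranges that overlapped, although Slit3 was higher in each library. Slit1 exceeded Slit2 by 1.59 ± 0.25 log2 units, a ratio of 3.10 ± 0.55. With the sum over transcripts this difference shrank to 0.11, as 19 overlapping transcripts of Slit2 are listed against 5 of Slit1. The reads of Slit2 did not come out whole, so the length of its transcript is uncertain.

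Robo2 was the leading Slit receptor gene. Robo2 had 19.1, 23.7 and 18.3 TPM, Robo1 4.35, 4.58 and 4.30 TPM, and no library of one overlapped the other. Robo3, whose product lets commissural axons cross the midline, had 0.968, 1.15 and 1.04 TPM. Robo1 lay -2.17 ± 0.15 log2 units from Robo2, so that Robo2 was 4.61 ± 0.50 times as high, and -5.03 with the sum over transcripts. The Robo median minus the Slit median was 0.04 ± 0.14 log2 units, and its sign turned with the most abundant transcript (-0.21) and with the sum over transcripts (-3.09).

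Receptors of the netrin system had a higher median than netrins, though Ntn4 lay above Dcc, Unc5c and Unc5b. Neo1 encodes neogenin, which also binds the repulsive guidance molecules, and had 40.8, 41.5 and 36.0 TPM, the highest mean of all members by the transcripts used. Epha5 lay above it with the most abundant transcript, at 41.4 against 39.4 TPM. It also did so at 40.1 TPM with the transcript of most reads in the deposited annotation's own length. Dcc, the receptor of netrin attraction, had 2.19, 2.30 and 1.86 TPM. The difference, -4.16 ± 0.04 log2 units for Dcc minus Neo1, was the largest of the 9 pairs with the transcripts used, and Neo1 was 18.7 ± 0.63 times as high. With the sum over transcripts it was -3.05, smaller than that of Robo1 and Robo2. Both genes were lowest in replicate 3.

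Of 4 UNC5 genes, 3 were expressed. Unc5a had 8.20, 8.05 and 8.03 TPM and Unc5d, whose product also binds FLRT proteins, 7.52, 9.21 and 7.11 TPM. These did not differ beyond the spread, at 0.04 ± 0.20 log2 units; the difference was 0.84 with the most abundant transcript and 2.71 with the sum over transcripts. Unc5c stood at 2.55 ± 0.28 TPM. Unc5b, which is also known from blood vessels, had 0.493, 0.364 and 0.486 TPM.

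Netrin genes had a median of 1.08 ± 0.11 TPM. Ntn4, whose product binds laminins of basement membranes, had 3.79, 4.61 and 4.06 TPM. Ntn1, the classical attractant of commissural axons, had 1.18, 0.969 and 1.10 TPM, and Ntn3 0.650, 0.586 and 0.644 TPM. Ntn1 lay -1.85 ± 0.27 log2 units from Ntn4. The netrin receptor median exceeded the netrin median in each library, by 1.79, 2.20 and 1.81 log2 units. Their mean of 1.93 ± 0.23 is a 3.81-fold difference on the log2(TPM + 0.1) scale, not a ratio of TPM medians.

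Of the 9 pairs compared, 8 had the same sign in each library, and their exact permutation p, from flipping signs on both sides, was 0.25, which is the smallest that 3 libraries allow. Unc5a minus Unc5d had a sign-flip p of 1 (exact permutation test, n = 3). No pair could therefore reach 0.05. With the transcripts used, 6 of 28 adjacent pairs along the order of levels inside the families had overlapping ranges over the libraries.

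**Figure D2:**
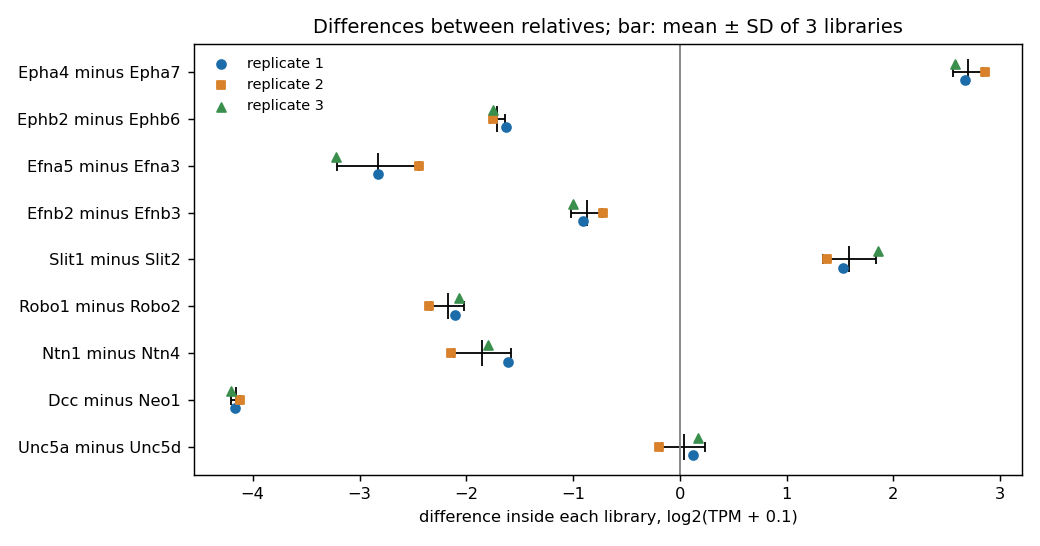
Difference between 9 pairs of relatives inside each library, on the log2(TPM + 0.1) scale, with points for replicates 1 to 3 and a bar for mean ± SD. The points of 8 pairs lie on 1 side of 0, and those of Unc5a minus Unc5d on both sides.

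Other genes of these pathways, both intracellular carriers and further ligands and surface proteins, were listed apart from the 37. Of 16 genes of Eph and ephrin signalling, 14 were expressed, with a median of 9.37 ± 0.60 TPM, beside 61.8% of all coding genes and their median of 2.90 TPM. Chn1, a Rac inhibitor that acts below EphA4, led at 59.8 ± 5.46 TPM, followed by the Src family kinase gene Fyn at 45.6 ± 1.07 and Ngef, the exchange factor ephexin, at 28.6 ± 0.40 TPM. Arhgef15, which encodes a relative of ephexin, was lowest at 0.044 ± 0.010 TPM.

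For Slit and Robo signalling, 15 of 16 genes were expressed, with a median of 13.4 ± 1.09 TPM. Nell2, which encodes a secreted ligand of Robo3, stood at 144 ± 7.30 TPM, in contrast to Robo3 itself. Evl, an actin regulator of the Ena/VASP family, stood at 80.5 ± 2.11 and the kinase gene Pak1 at 40.7 ± 3.27 TPM. Robo4, the vascular member of the family, was lowest at 0.0053 ± 0.0051 TPM. In the netrin list 20 of 21 genes were expressed, with a median of 10.3 ± 1.39 TPM. The actin regulator genes Cdc42, Rac1 and Rhoa led at 213 ± 13.2, 78.9 ± 2.58 and 50.2 ± 1.47 TPM, and Ntn5 was lowest at 0.020 ± 0.019 TPM.

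Epha7 is known for short forms that lack the kinase domain, and its transcripts are shown because their levels differed. The short transcript with 1878 coding bases had 8.32, 8.78 and 8.34 TPM, and the short transcript with 1830 coding bases 7.74, 7.99 and 7.18 TPM. The full-length transcript, with 2994 coding bases, had 4.54, 5.02 and 4.54 TPM. Reads in shared exons count for each of them, so density in the bases that a longer transcript holds beyond a shorter was computed from recovered reads. Over the 2323 bases of the first short transcript it was 427, 380 and 381 reads per kb. Over the 4423 bases of the full-length transcript that this short transcript lacks, it was 131, 132 and 116 reads per kb. The second density was 32.0 ± 2.31% of the first and lower in each library. The full-length transcript has 2994 coding bases of 6746 and this short transcript 1878 of 2323. Most of the 4423 bases therefore lie outside the coding part, and density in the coding bases among them was not computed.

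The full-length form and the second short form share 1798 coding bases and then part. The lines give the last 30 shared bases, up to position 28943378 of chromosome 4 on the plus strand of GRCm38, in lower case, and the next 30 coding bases of each form in capitals. In the full-length form these start at 28947528. In the short form they start at 28946219, in an exon of its own that holds 32 of its coding bases.
Epha7 full-length: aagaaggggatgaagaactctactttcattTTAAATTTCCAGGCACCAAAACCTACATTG
Epha7 short: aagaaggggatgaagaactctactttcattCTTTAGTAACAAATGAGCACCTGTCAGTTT
The second short form had 152, 113 and 60 more reads than the first, or at least 183, 136 and 72.4 reads per kb of its 829 bases that the first lacks. These are lower bounds, so they were not compared with the density of the full-length form.

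The same measure could be had for 7 members and for 1944 coding genes. It was under 50% in 4 of the 7, beside 36.2% of those genes, whose median was 65.7%. Ephb2 had the lowest value of the 7 at 20.5 ± 2.70%. Its longest transcript of 10902 bases has 2958 coding bases and the transcript of 4804 bases inside it 2961, so the extra sequence lies outside the coding part. In the extra bases the density was 75.7, 67.7 and 55.9 reads per kb, against 396, 287 and 298 in the shorter transcript. Slit1 stood at 47.4 ± 6.82%, Unc5a at 49.4 ± 3.04%, Ephb1 at 77.4 ± 13.4%, Efna5 at 97.9 ± 5.44% and Epha4 at 126 ± 5.96%. The level of Ephb2 was 3.86 TPM with the longest transcript and 6.96 ± 0.67 TPM with the transcript of 4804 bases.

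**Figure D3:**
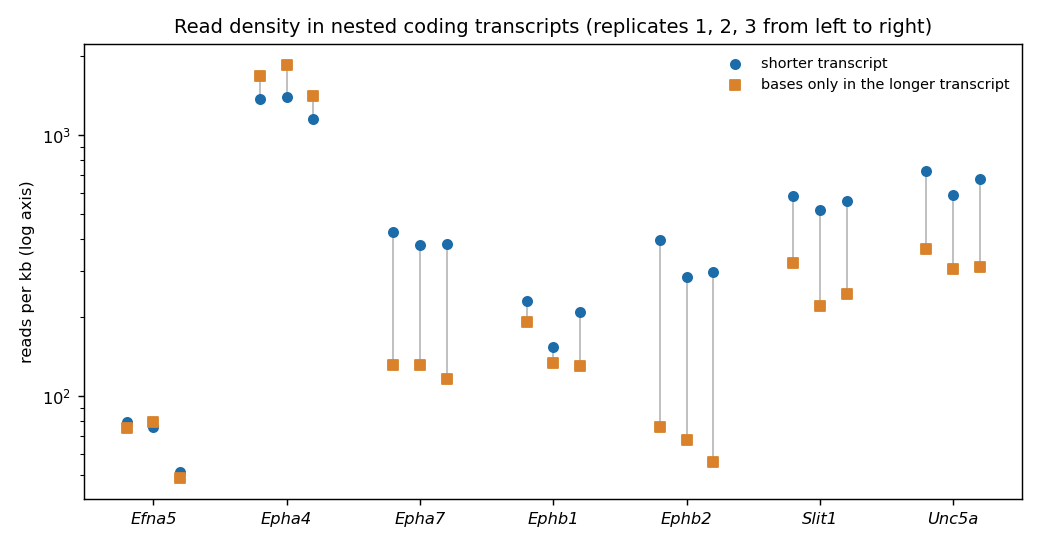
Reads per kb (log axis) in a shorter coding transcript and in the bases found only in the longer transcript that contains it, for 7 members in replicates 1, 2 and 3. The gap is widest for Ephb2 and Epha7, and in Epha4 the longer transcript's own bases are the denser.

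The study concerns torsional stress, and the members include very long genes. Genomic span, from the outermost annotated ends, had a median of 106.5 kb over members and 21.96 kb over all coding genes. Of the members, 12 span over 200 kb, among them Dcc, Epha6, Robo1, Slit3, Unc5d and Robo2. These 12 were each expressed, beside 77.8% of all coding genes of that length. Of the 25 shorter members 18 were expressed, beside 60.9%. Levels among the long members ranged widely: Epha5 at 363 kb had 38.6 TPM, Robo2 at 519.99 kb 20.4 TPM, Epha6 at 952 kb 3.04 TPM and Dcc at 1097 kb 2.12 TPM. The median of the 12 was 4.21 TPM and that of all coding genes over 200 kb 4.73 TPM. Efnb3 with 6.11 kb and Efna3 with 9.07 kb were the expressed members under 10 kb.

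**Figure D4:**
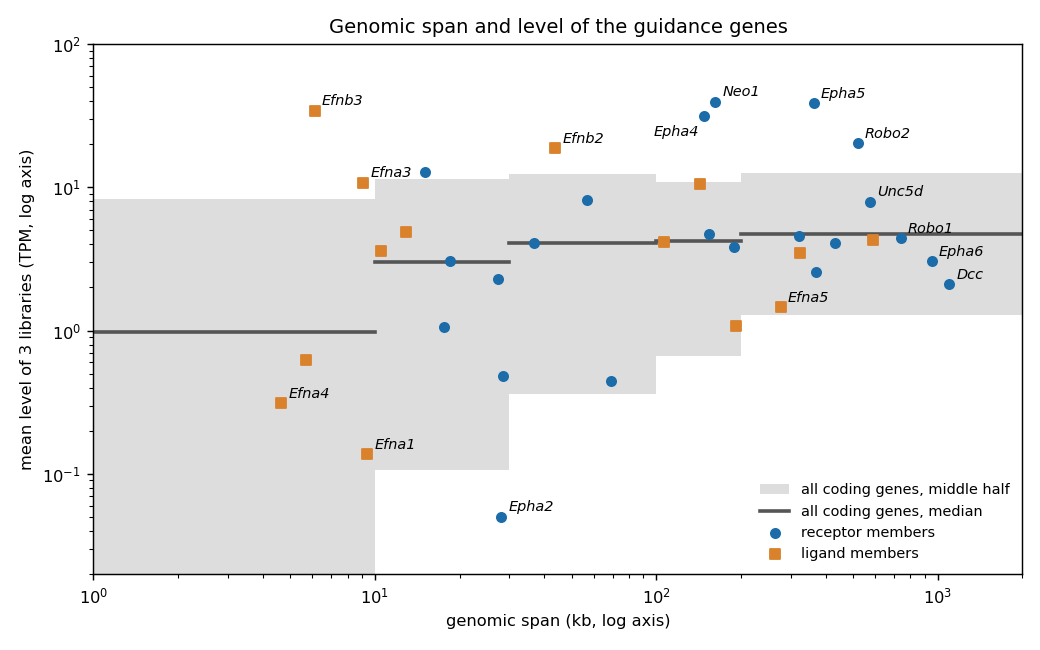
Mean level of 3 libraries (TPM, log axis) against genomic span (kb, log axis) for the members above 0, with the median and the interquartile range of all coding genes in 5 span classes in grey. The 12 members over 200 kb all lie above 1 TPM, while the members under 1 TPM span less than 100 kb.

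Some members lie near one another in the genome, several with unlike levels. On chromosome 3 of GRCm38, Efna1 (89271733 to 89281142), Efna3 (89313899 to 89322965) and Efna4 (89333390 to 89338028) lie on the minus strand with no other coding gene with a value between them. The middle gene Efna3 stood at 10.7 TPM, between Efna1 at 0.137 and Efna4 at 0.311 TPM. On chromosome 16, Robo1 (72308306 to 73046095) and Robo2 (73891839 to 74411825) lie 846 kb apart on opposite strands, at 4.41 and 20.4 TPM. Ephb2 (136647539 to 136835988) and Epha8 (136929419 to 136956816) lie 93.4 kb apart on chromosome 4, with 3 coding genes with a value between them. Ephb2 stood at 3.86 and Epha8 at 2.28 TPM.

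Promoter sequence was compared with level because CG-rich promoters are common among active genes. RefSeq windows of GRCm38.p6, from 250 bases before to 50 after a gene start, were found for 32 of the 37 members, and the window nearest to the start of the transcript used was taken. For Epha10 and Slit2 that window lay 4014 and 1656 bases away, and for Robo2, Efnb2 and Epha5 836, 469 and 461 bases. A CG count over 0.6 of the number expected from the C and G content was found in 21 of 25 expressed members (84%) and in 2 of 7 members under 1 TPM (28.6%). The same held for 78.2% of coding genes of at least 1 TPM and 25.5% of those below, so the members lay near the background. The letters TATAAA, on either strand, were found in 2 of the 32 windows, Efnb2 and Slit2, and in 9.42% of windows of coding genes.

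Members at both ends of the order of levels are shown, chosen after their values were seen. The lines give the 250 bases before the RefSeq start, with CG in capitals. For Epha5 that start lies 461 bases from the start of the transcript used. They are chr9:59036442-59036691 for Neo1, chr5:84417383-84417632 for Epha5, chr6:42373269-42373518 for Epha1 and chr10:60831582-60831831 for Unc5b, each on the minus strand.
Neo1: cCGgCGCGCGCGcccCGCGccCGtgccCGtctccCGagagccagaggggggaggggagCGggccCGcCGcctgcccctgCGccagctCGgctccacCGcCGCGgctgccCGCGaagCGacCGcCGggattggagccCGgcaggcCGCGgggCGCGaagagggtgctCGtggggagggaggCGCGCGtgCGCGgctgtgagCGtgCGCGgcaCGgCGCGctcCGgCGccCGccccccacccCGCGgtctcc
Epha5: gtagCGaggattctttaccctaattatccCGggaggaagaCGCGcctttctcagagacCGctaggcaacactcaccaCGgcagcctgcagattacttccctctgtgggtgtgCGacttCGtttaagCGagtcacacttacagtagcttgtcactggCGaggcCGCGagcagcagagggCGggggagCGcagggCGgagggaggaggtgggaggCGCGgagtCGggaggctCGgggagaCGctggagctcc
Epha1: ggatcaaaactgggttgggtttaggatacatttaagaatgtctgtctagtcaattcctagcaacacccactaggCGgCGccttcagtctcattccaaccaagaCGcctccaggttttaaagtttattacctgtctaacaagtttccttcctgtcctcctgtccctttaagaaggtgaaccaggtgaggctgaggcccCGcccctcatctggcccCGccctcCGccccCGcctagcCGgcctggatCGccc
Unc5b: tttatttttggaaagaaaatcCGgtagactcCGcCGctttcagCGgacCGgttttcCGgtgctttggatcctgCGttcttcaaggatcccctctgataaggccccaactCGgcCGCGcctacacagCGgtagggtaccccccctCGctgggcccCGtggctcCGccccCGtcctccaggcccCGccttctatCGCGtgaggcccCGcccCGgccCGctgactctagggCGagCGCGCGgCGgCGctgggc
Neo1, the highest member by the transcripts used, holds 45 CG in these bases and Epha5 20. Epha1, with no reads, holds 9. Unc5b holds 27 at a level of 0.448 TPM, so a CG-rich window also stood before a gene of low level. Epha4 and Robo2 were high with 17 CG each in their whole windows.

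**Figure D5:**
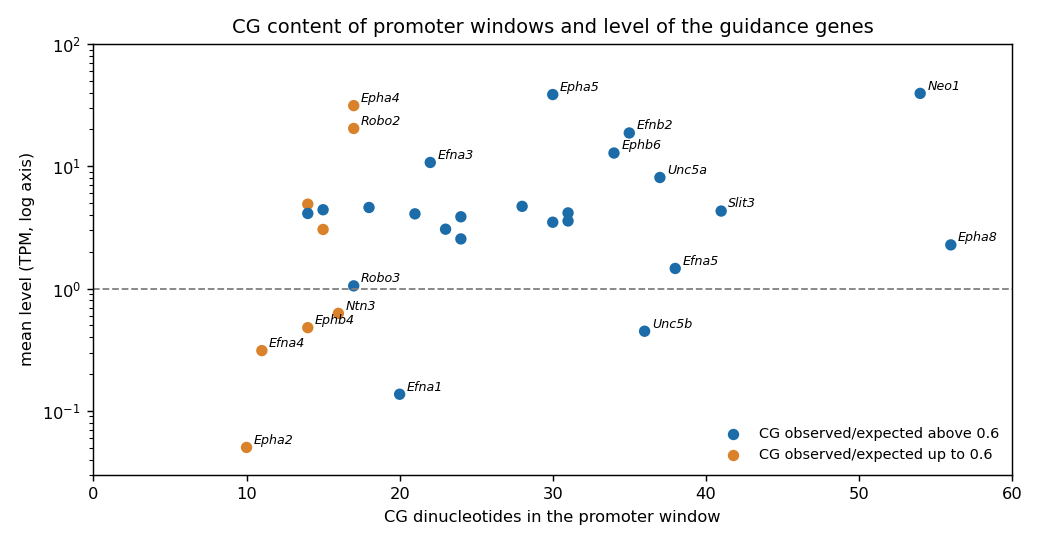
Mean level (TPM, log axis) against the number of CG dinucleotides in the 300-base promoter window for members above 0, coloured by the ratio of observed to expected CG. Of the members under 1 TPM, Unc5b and Efna1 have a ratio above 0.6, while Epha4 and Robo2 lie among the highest levels with a lower ratio.

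Replicate 3 tended to hold the lowest values of the set. Of the 30 expressed members, 19 were lowest in replicate 3, beside 41% of all expressed coding genes, and 2 were highest there, Slit1 and Epha8, beside 31.4%. In replicate 2, 19 were highest, beside 40.4%, and 4 lowest, beside 25.4%. In replicate 1, 9 were highest, beside 28.2%, and 7 lowest, beside 33.6%. The widest drops were in Efna5 (1.82 TPM in replicate 2 and 1.07 in replicate 3) and Epha10 (4.65 and 3.09 TPM). Summed neuronal markers were also lowest in replicate 3, at 2294, 2341 and 2052 TPM. So were the sums of 5 inhibitory neuron markers (272, 282 and 186 TPM) and of 5 excitatory markers (321, 320.5 and 313 TPM). Single markers inside these sums went other ways. The inhibitory marker Dlx1 and the excitatory marker Neurod6 were highest in replicate 3, and the excitatory marker Slc17a6 was lowest in replicate 1. Sums of 7 astrocyte markers, each expressed, were 421, 450 and 514 TPM. Of 7 oligodendrocyte lineage markers, 6 were expressed and the sums were 66.1, 49.6 and 82.9 TPM. Of 6 radial glia and progenitor markers, 5 were expressed and the sums were 28.2, 31.4 and 35.4 TPM. Pericyte and fibroblast markers, 2 of 5 expressed, summed to 5.28, 3.88 and 4.07 TPM, and microglial markers, 1 of 6 expressed with Tmem119 at 0, to 2.07, 2.09 and 1.09 TPM. Their part in the lower values of replicate 3 was not tested. Fewer cells of a type and less RNA per cell cannot be told apart in these libraries.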

How the data were processed

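Total RNA was measured in 3 wild-type control libraries, numbered as in their titles. The authors deposited TPM values for 84660 transcripts of GENCODE M4, and the submitters' processing notes list build mm10 and the tools STAR 2.5.3a, Subread 1.4.6, featureCounts and FastQC 0.11.2. Of these transcripts, 98.1% matched GENCODE M21 on the same build by identifier without version. A gene value is the coding transcript with the highest mean TPM times exonic length in M21, with ties going to the longer transcript. TPM times length was a whole number of reads, within 0.01, in at least 99.8% of transcripts with unchanged ends. For moved ends the length was shifted by the move, and kept where reads came out whole in each library, as for 36 of 37 members and 17730 of 18130 coding genes. Depth was taken from these.

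Pairs were set side by side inside each library on the log2(TPM + 0.1) scale by an exact permutation test that flips signs (two-sided), and class medians without a test. The pseudocount of 0.1 understates differences of low genes. For density in nested transcripts, at least 99% of the shorter transcript had to lie in the longer, with 500 or more bases left over. Uniqueness was searched with 50-base stretches taken every 10 bases on 22 chromosomes. The highest and lowest member of each family, the members of the pairs and the 3 highest and the lowest gene of each signalling list are named; other names were chosen after values were seen. The members and lists were chosen with earlier results of these data known. Statistics were tested on simulated data. The scripts ran on pandas 2.3.3, numpy 2.4.6 and matplotlib 3.10.9 under Python 3.11.15.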

Additional observations from a re-analysis of the deposited data

How the results depend on the processing

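The number of expressed members stayed between 30 and 34 under other transcript choices, rescaling, a threshold of 0.5 TPM and leaving out each replicate. It was 34 after rescaling to nuclear coding genes, by factors of 4.62, 4.57 and 4.74 in replicates 1, 2 and 3. Ntn3, Ephb4, Unc5b and Efna4 then also reached 1 TPM. At a threshold of 5 TPM the number was 11. The shares of all coding genes under these settings were not computed, so these counts cannot be set against a background. Of the 9 pairs, 7 kept their direction under each alternative run. Efnb2 minus Efnb3 turned to 0.24 with the sum over transcripts, and Unc5a minus Unc5d ran from -0.034 to 0.15 when a replicate was left out. With the most abundant transcript, EphA minus EphB was -0.13, Eph receptors minus ephrins -0.054 and Robo minus Slit -0.21. With the sum over transcripts these were -1.08, 0.64 and -3.09. Leaving out each replicate moved EphA minus EphB between -0.16 and 0.14 and Robo minus Slit between -0.039 and 0.092. A minimum of 1 TPM moved Eph receptors minus ephrins to -0.68, and a pseudocount of 1 moved netrin receptors minus netrins to 1.404. The sum counts shared reads repeatedly; the cause of the other changes was not tested. Taking the transcript with the most whole reads, an alternative chosen after seeing the data, changed no direction among the 9 pairs and 4 class medians. It placed Epha5 at 40.1 TPM above Neo1 at 39.4 TPM. No paired analysis was possible because all libraries belong to 1 group, so no replicate number is shared between groups; the gene pairs were compared inside libraries. Depth limits the lowest members, Epha2, Efna1 and Efna4, which rest on 6 to 27 reads per library.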
